A study of Mus musculus with 11 samples.

Results

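Insulin-like growth factor 1 (IGF1), its receptors and the proteins that bind it were followed through the stromal cells of mouse perigonadal white adipose tissue (pgWAT). The 9 genes were taken by name from the rows of the count table, namely Igf1, Igf1r, Igf2r, Igfbp2, Igfbp3, Igfbp4, Igfbp5, Igfbp6 and Igfbp7, and each matched 1 of its 23507 gene rows. Their levels were compared between subtypes of adipose stem cells (ASC), blood endothelial cells (EC), mural cells (pericytes and vascular smooth muscle cells, VSMC) and macrophages, and between the sexes.

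The study collected the stromal vascular fraction (SVF), the cells of fat other than adipocytes, from male and female mice of 12 to 20 weeks that carried the transgene Tg(Pdgfrb-eGFP) on a C57BL6/J background, so every group shared the reporter. In these mice green fluorescent protein follows the promoter of Pdgfrb, which is active in ASC and mural cells. Single cells were collected by the reporter, by the endothelial surface protein CD31 or by DPP4, a surface protein of part of the ASC, and were sequenced with Smart-seq2, which reads whole transcripts and has no molecular barcodes, so copies of a molecule are counted too. The 3261 cells came from 11 plates, which the labels assign to 3 male mouse ids (1, 4 and 8) and 4 female ids (2, 3, 5 and 6/7), of which 6/7 stands for 2 animals.

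Reads in genes per cell ran from 141935 to 3526227 with a median of 616939. Classes were rebuilt here by clustering without the 9 genes or other genes of the pathway, and were named from marker genes, so names are written "X-like". There were 2250 ASC-like cells in all 7 ids, 561 EC-like cells in 5 ids, 137 macrophage-like cells in mice 1 and 5, and mural-like sums for mouse 1 (44 pericyte-like and 38 VSMC-like cells) and mouse 2 (13 pericyte-like cells). The methods give a gate against the leukocyte protein CD45, yet all 6 macrophage markers were above 10 CPM in both macrophage-like sums. ASC-like cells were scored within each mouse as ASC1a-like (807 cells), ASC1b-like (670) or ASC2-like (773), and 22.1% of them lay near a boundary between subtypes, so the subtypes are ranges of a score. Of the 60 pericyte-like cells 52 were rich in markers of a further class, and the 6 EC markers summed to 1444 and 3493 CPM in the pericyte-like cells of mice 1 and 2, against 3581 to 7205 CPM in EC-like cells and 2.82 to 22.4 CPM in ASC-like cells. Rows of ribosomal RNA took 29.9 to 66.9% of the reads of ASC-like cells, with 66.9, 31.7 and 58.5% in the males 1, 4 and 8 and 34.4, 29.9, 54.1 and 37.7% in the females 2, 3, 5 and 6/7. Each mouse had its own plate or plates, so mouse, plate and sequencing cannot be told apart.

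IGF1 is a secreted growth factor, made by the liver and locally by stromal cells, that signals through the receptor tyrosine kinase IGF1R and favours growth, survival and the differentiation of preadipocytes. IGF2R takes up IGF2 for degradation and carries lysosomal enzymes, and does not pass on the growth signal. IGF binding proteins hold IGFs outside the cell, lengthen their life and limit or deliver them to receptors until proteases release them. IGFBP7 is a relative that binds IGFs weakly and is known from vessel walls.

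Levels are given as CPM, reads scaled to 1 common library total and by TMM factors, which set the bulk of genes equal between sums of reads per mouse and class. Genes are compared with each other only as CPM per kb, that is per kilobase of annotated exons (GENCODE vM21 on GRCm38, which is mm10). This length counts all annotated exons, 1112 bases for Igfbp6 and 16791 bases for Igf1r, so it understates genes whose cells use short transcripts. The table did not state that strand was used in counting. Igf1 overlaps the antisense gene Igf1os and Igf2r overlaps Airn, both without shared exon bases, while Igfbp7 shares 85 exon bases with Polr2b on the opposite strand, so reads there cannot be told apart.

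Igf1 lies on chromosome 10 (87858265 to 87937042, plus strand), Igf1r on chromosome 7 (67952827 to 68233668, plus) and Igf2r on chromosome 17 (12682406 to 12769664, minus). Igfbp2 (72824503 to 72852474, plus) and Igfbp5 (72857932 to 72874884, minus) are close to each other on chromosome 1. Igfbp3 (7206086 to 7213923, minus) and Igfbp4 (99041244 to 99054392, plus) lie far apart on chromosome 11, Igfbp6 lies on chromosome 15 (102144362 to 102149511, plus) and Igfbp7 on chromosome 5 (77349240 to 77408041, minus). All positions are on mm10.

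Across classes, the ligand had its highest means in ASC-like and macrophage-like cells. Igf1 averaged 192 ± 129 CPM (SD, n = 7) in ASC1b-like, 129 ± 117 in ASC1a-like and 60.8 CPM in ASC2-like cells. In macrophage-like cells it was at 154 CPM in mouse 1 and 123 CPM in mouse 5. EC-like cells had 15.0 CPM in mouse 1, 0.335 in mouse 8, 9.94 in mouse 2, 0.283 in mouse 5 and 13.9 CPM in mouse 6/7, all below the lowest ASC-like value of 36.6 CPM. Mural-like cells had 9.11 CPM in mouse 1 and 31.9 CPM in mouse 2. This range overlapped that of EC-like cells and those of ASC2-like (from 22.3 CPM) and ASC1a-like cells (from 26.8 CPM).

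**Figure D1:**
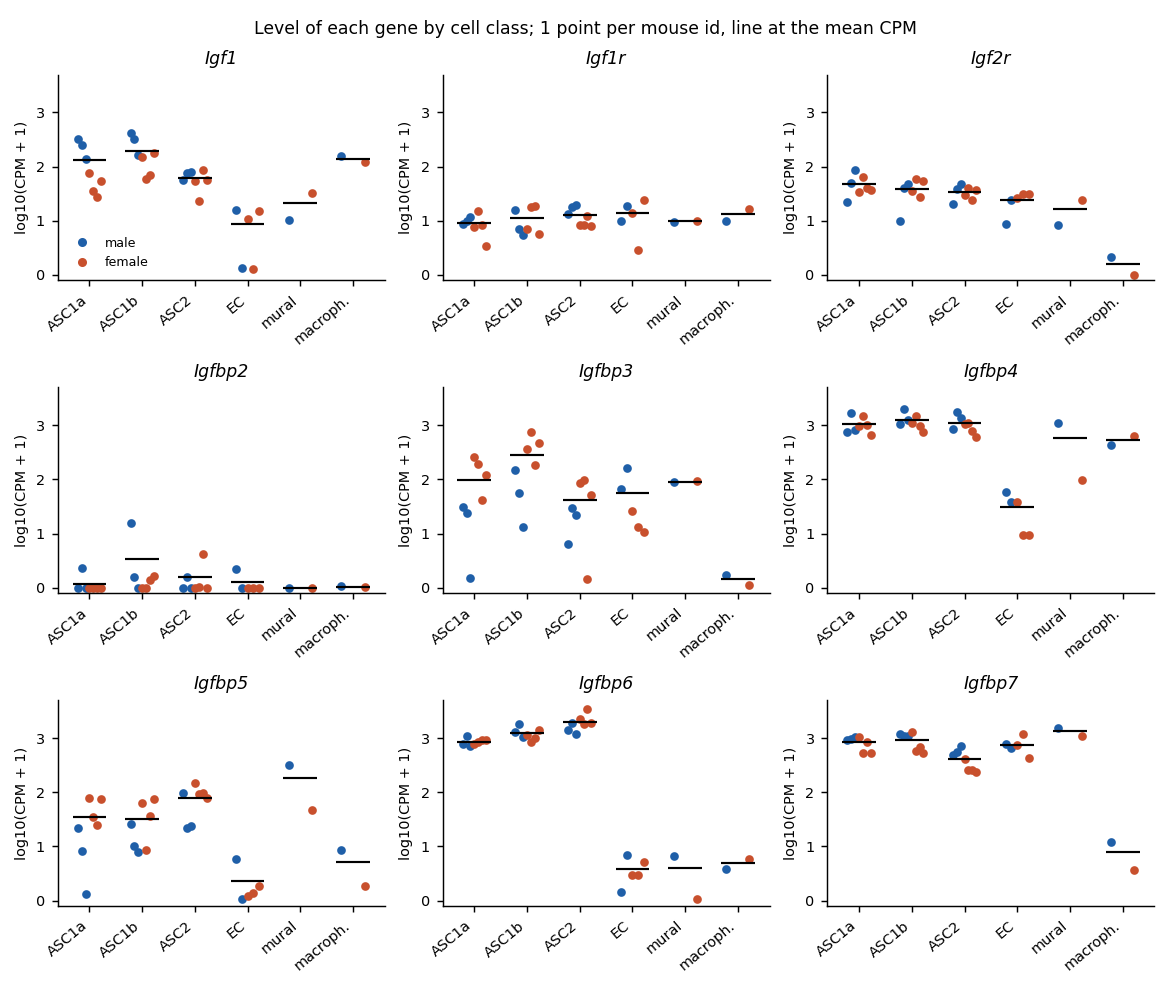
Level of each of the 9 genes as log10(CPM + 1) on the y axis in ASC1a-like, ASC1b-like, ASC2-like, EC-like, mural-like and macrophage-like cells on the x axis. Each point is the sum of 1 mouse id (blue male, red female) and the line is the mean CPM. Igfbp6 sits above 730 CPM in every ASC-like point and below 6 CPM in every other class, whereas Igfbp7 is high in all classes but macrophage-like cells.

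Both receptors were on average lower per kb than the ligand in ASC-like cells. Igf1r, the signalling receptor, averaged between 8.23 CPM in ASC1a-like and 12.9 CPM in EC-like cells, and the ranges of all neighbours in the order of classes overlapped. Igf2r, the scavenger receptor, averaged 46.5 ± 21.3 CPM in ASC1a-like, 38.2 ± 17.0 in ASC1b-like and 32.8 CPM in ASC2-like cells (n = 7 each), with 23.1 CPM in EC-like and 15.3 CPM in mural-like cells. In macrophage-like cells Igf2r had 56 reads in mouse 1 (1.12 CPM) and 0 reads in mouse 5, below every value of the other classes. Per kb, ASC-like cells held 12.2 ± 7.72 CPM per kb of Igf1, 4.14 ± 1.56 of Igf2r and 0.581 ± 0.179 of Igf1r (n = 7). Mouse 3 was the exception for Igf2r, with 5.59 CPM per kb of it and 3.698 of Igf1.

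The binding proteins differed by class. Igfbp6, which prefers IGF2, was at 966 to 1922 CPM in the 7 ASC-like sums and at 0.0798 to 5.86 CPM in the EC-like, mural-like and macrophage-like sums. Igfbp4, an inhibitor of IGF action that PAPP-A cleaves, averaged 1093 ± 373 CPM in ASC-like cells and was at 428 and 642 CPM in macrophage-like cells of mice 1 and 5. EC-like cells had 56.5, 36.8, 38.0, 8.37 and 8.45 CPM of Igfbp4 in mice 1, 8, 2, 5 and 6/7. The EC-like values of Igfbp4 thus lay below every value of the other classes.

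Igfbp7 was at 1556 and 1110 CPM in mural-like cells of mice 1 and 2, at 422 to 1189 CPM in EC-like and at 408 to 947 CPM in ASC-like cells. Macrophage-like cells had 11.2 and 2.63 CPM. Igfbp3, the main carrier of IGFs in blood, averaged 282 ± 259 CPM in ASC1b-like cells, 95.8 ± 99.6 in ASC1a-like and 41.3 CPM in ASC2-like cells, and 54.5 CPM in EC-like cells. Both mural-like sums had about the same Igfbp3, 88.5 and 92.5 CPM, and macrophage-like cells had 0.740 and 0.107 CPM.

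Igfbp5, a matrix-bound member of the family, had its highest mean in mural-like cells, from 316 CPM in mouse 1 and 45.4 CPM in mouse 2. In mouse 2 this was below the 147, 75.9 and 62.0 CPM of ASC2-like, ASC1a-like and ASC1b-like cells. It averaged 79.1 CPM in ASC2-like, 33.5 in ASC1a-like and 31.5 CPM in ASC1b-like cells. In EC-like cells it ran from 0.0837 to 4.92 CPM. Igfbp2, known from adipocytes and liver, was close to absent. It had 1072 reads in 62 of the 3261 cells, and its highest sum was 15.0 CPM, in ASC1b-like cells of mouse 1, where all 582 reads came from 1 of 70 cells. The 6 mesothelial markers summed to 201 CPM in that sum, against 0.0467 to 52.2 CPM in the other ASC1b-like sums, and their part in the value was not tested. It passed the filter on low counts in no comparison, so the counts of tested genes below cover at most 8 of the 9.

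Added up per kb, the 6 binding protein genes came to 2097 ± 318 CPM per kb in ASC-like cells (n = 7), 1299 ± 454 in mural-like (n = 2), 658 ± 226 in EC-like (n = 5) and 131 ± 29.6 in macrophage-like cells (n = 2). In EC-like cells Igfbp7 made up 95.6 ± 3.72% of it, and in mural-like cells 79.5 and 93.9%. In macrophage-like cells Igfbp4 made up 87.9 and 95.5%. ASC-like cells held a mixture, with 57.7 ± 8.90% Igfbp6, 28.0 ± 8.71% Igfbp7 and 11.8 ± 3.44% Igfbp4. Igf1 itself, set against the pool, came to 0.587 ± 0.376% in ASC-like cells and to 8.17 and 14.1% in macrophage-like cells.

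**Figure D2:**
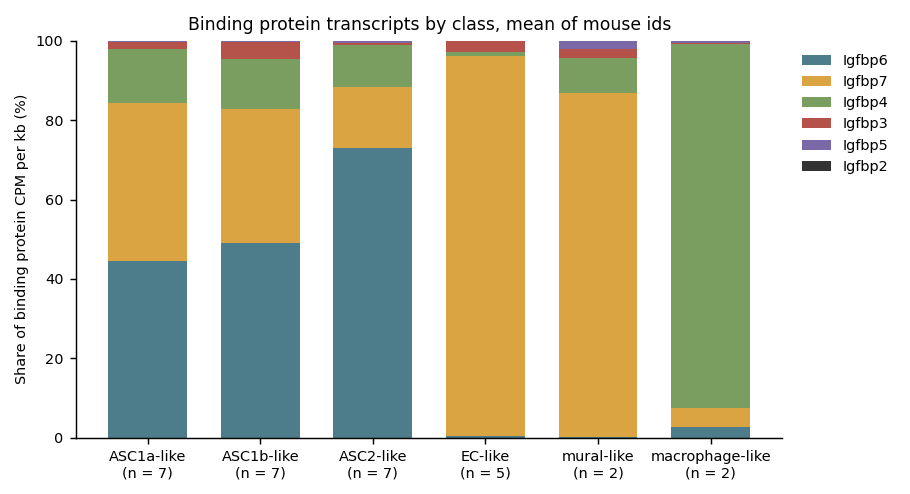
Share of each binding protein gene in the summed CPM per kb of all 6 on the y axis, as the mean over mouse ids, for each class on the x axis. Igfbp7 fills 95.6% of the bar of EC-like cells and Igfbp4 most of that of macrophage-like cells, while Igfbp6 grows from 44.6% in ASC1a-like to 72.9% in ASC2-like cells.

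These class differences were tested on sums of reads per mouse, paired within mice, with the quasi-likelihood test of edgeR and Benjamini-Hochberg adjustment over all genes tested. Calls needed an adjusted p below 0.05 together with a fold change above 2.6. Between EC-like and ASC-like cells of 5 mice, 4 of the 8 members tested were called, all lower in EC-like cells, where 22.7% of 12207 genes were called. Igfbp6 fell by 9.23 ± 0.74 on the log2 scale (SE; adjusted p = 0.000124), Igfbp5 fell by 6.44 ± 0.87 (adjusted p = 0.0013) and Igfbp4 fell by 5.29 ± 0.48 (adjusted p = 0.000206). Igf1 fell by 4.78 ± 0.99 (adjusted p = 0.00938). Each of the 4 was lower in EC-like cells of all 5 mice, where 40.4% of all genes differed one way in every mouse, and stayed called whichever mouse was left out. Igfbp7 differed by 0.07 ± 0.27 (adjusted p = 0.885), Igf1r by 0.27 ± 0.73 (adjusted p = 0.825), Igf2r by -0.62 ± 0.30 (adjusted p = 0.185) and Igfbp3 by -1.57 ± 1.31 (adjusted p = 0.438). The 6 ASC markers summed to 14.9 to 73.3 CPM in the EC-like sums, with 0 to 3 of them at or above 10 CPM, against 13778 to 48510 CPM in ASC-like cells. The 10 adipocyte genes summed to 1572 to 2552 CPM there, against 22.1 to 217 CPM in ASC-like cells, and their part in the members' values was not tested.

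Macrophage-like cells shared the ligand, Igf1r and Igfbp4 with ASC-like cells and had less of the other members tested. Igf1r averaged 12.15 CPM in macrophage-like (n = 2) and 9.76 CPM in ASC-like cells (n = 7). In the 2 mice with both classes 5 of the 8 members tested were called, all lower in macrophage-like cells, beside 25.2% of 8036 genes. The fit had 1 residual degree of freedom, so the spread between mice is poorly known. Igfbp6 fell by 8.42 ± 0.53 (adjusted p = 0.000337), Igfbp3 fell by 7.25 ± 0.91 (adjusted p = 0.00205), Igfbp7 fell by 6.80 ± 0.64 (adjusted p = 0.000691), Igf2r fell by 6.03 ± 1.67 (adjusted p = 0.0446) and Igfbp5 fell by 4.13 ± 0.90 on the log2 scale (adjusted p = 0.0192). The calls of Igf2r and Igfbp5 were lost without mixed cells, of which macrophage-like cells held 35 (adjusted p = 0.115 and 0.0507), and without the pairing by mouse (adjusted p = 0.091 and 0.0767), which left 3 calls. Igf1 was lower in macrophage-like cells of mouse 1 (154 against 236 CPM) and higher in those of mouse 5 (123 against 63.0 CPM), a mean difference of 0.35 ± 0.53 (adjusted p = 0.682). Igfbp4 differed by -0.57 ± 0.40 without a call (adjusted p = 0.361). The 6 ASC markers summed to 11.2 and 38.4 CPM in the macrophage-like sums.

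Mural-like cells could be compared in 2 mice, whose sums held different cells. None of 9701 genes was called against ASC-like cells (0%), with 1373 genes at an unadjusted p below 0.05, whereas a likelihood ratio test called 1018 genes and DESeq2 1387. This fit, like that of macrophage-like cells, had 1 residual degree of freedom. Here the quasi-likelihood test misses large changes, so the lack of a call says nothing about the members. The largest difference among the members was that of Igfbp6, -10.15 ± 2.21 (adjusted p = 0.165), with 5.81 and 0.0798 CPM in mural-like cells against 1114 and 1351 CPM in ASC-like cells of mice 1 and 2. DESeq2 called this gene (adjusted p = 3.5e-16), as did the likelihood ratio test (adjusted p = 3.37e-05), and DESeq2 also called Igf1 (-2.98, adjusted p = 0.00834). Against EC-like cells 1 of 6 members tested was called, where 0.92% of 7283 genes were. Igfbp5 was higher by 6.96 ± 0.69 in log2 terms (adjusted p = 0.0248), with 316 and 45.4 CPM against 4.92 and 0.230 CPM. The call was lost without the pairing by mouse (adjusted p = 0.352). Igfbp4 differed by 2.98 ± 0.86 without a call (adjusted p = 0.372).

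Within the mural-like cells of mouse 1, pericyte-like and VSMC-like cells had different members. VSMC-like cells had 2445 CPM of Igfbp4 and 755 CPM of Igfbp5, and pericyte-like cells 215 and 31.1 CPM. Pericyte-like cells of mouse 2 were near the latter, with 97.3 and 45.4 CPM. Igfbp3 had the reverse order, with 1.22 CPM in VSMC-like cells and 152 and 92.5 CPM in pericyte-like cells of mice 1 and 2. Igfbp7 was high in all 3 sums, at 1966, 1350 and 1110 CPM. There was 1 sum of VSMC-like cells, so these differences have no replicate check. The 6 EC markers summed to 29.5 CPM in VSMC-like cells, against 1444 CPM in pericyte-like cells of mouse 1, and EC-like cells of mouse 1 had 66.3 CPM of Igfbp3. Whether reads of EC account for pericyte-like Igfbp3 was not tested. With pericyte-like cells alone, Igfbp4 was called against EC-like cells (1.85, adjusted p = 0.0396), as were 210 genes, and Igfbp5 came under the filter on low counts.

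The 3 ASC subtypes were compared within each of the 7 mice. ASC1a cells are regarded as committed preadipocytes, ASC2 cells as multipotent progenitors that carry DPP4, and ASC1b cells are less well placed. Igfbp6 was at 731 to 1109 CPM (median 846) in ASC1a-like, 862 to 1799 (median 1150) in ASC1b-like and 1170 to 3495 CPM (median 1910) in ASC2-like cells. The highest ASC2-like value was that of mouse 5. Its ASC2-like cells were rich in mesothelial markers (347.5 CPM summed), whose part in the value was not tested. Igfbp6 was higher in ASC2-like than in ASC1a-like cells of all 7 mice, by 1.17 ± 0.14 in log2 terms (adjusted p = 0.000428), past the p limit and under the fold limit. Igfbp7 was lower in ASC2-like cells of all 7 mice, by -1.06 ± 0.13 against ASC1a-like (adjusted p = 0.000578) and by -1.19 ± 0.12 against ASC1b-like cells (adjusted p = 0.00019), again under the fold limit. It was at 233 to 730 CPM in ASC2-like and at 521 to 1071 CPM in ASC1a-like cells. As a share of the pool per kb, Igfbp6 rose from 44.6 ± 6.60% in ASC1a-like through 49.1 ± 7.27% in ASC1b-like to 72.9 ± 11.8% in ASC2-like cells, and Igfbp7 fell from 39.8 ± 9.05% through 33.8 ± 8.38% to 15.4 ± 8.53%.

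Igfbp5 was the 1 member called between ASC2-like and ASC1a-like cells, of 8 tested, where 3.26% of 10734 genes were called. It had 96.6, 21.0 and 23.0 CPM in ASC2-like cells of the males 1, 4 and 8 and 147, 92.5, 96.9 and 76.7 CPM in the females 2, 3, 5 and 6/7. In ASC1a-like cells the same mice had 20.7, 7.32, 0.324, 75.9, 33.4, 23.8 and 73.0 CPM. Igfbp5 was higher in ASC2-like cells of all 7 mice, with a small gap in mouse 6/7, and by 1.81 ± 0.49 in log2 terms (adjusted p = 0.0457). The call was lost without mouse 1, 2, 3, 4 or 5 in turn (adjusted p = 0.072 to 0.102), without the pairing by mouse (adjusted p = 0.611) and without mixed cells (adjusted p = 0.0524). Igfbp5, Igfbp6 and Igfbp7 were the 3 members that differed the same way in all 7 mice, as did 11.6% of all genes. In the same comparison Igfbp3 differed by -1.14 ± 0.91 (adjusted p = 0.555). Against ASC1b-like cells Igfbp5 was higher by 1.58 ± 0.33 (adjusted p = 0.0128), also in all 7 mice. This call was lost without the pairing by mouse (1.32, adjusted p = 0.452), and the size fell under the fold limit without mouse 3 (1.27, adjusted p = 0.0103) and with thinned cells (1.36, adjusted p = 0.0139).

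**Figure D3:**
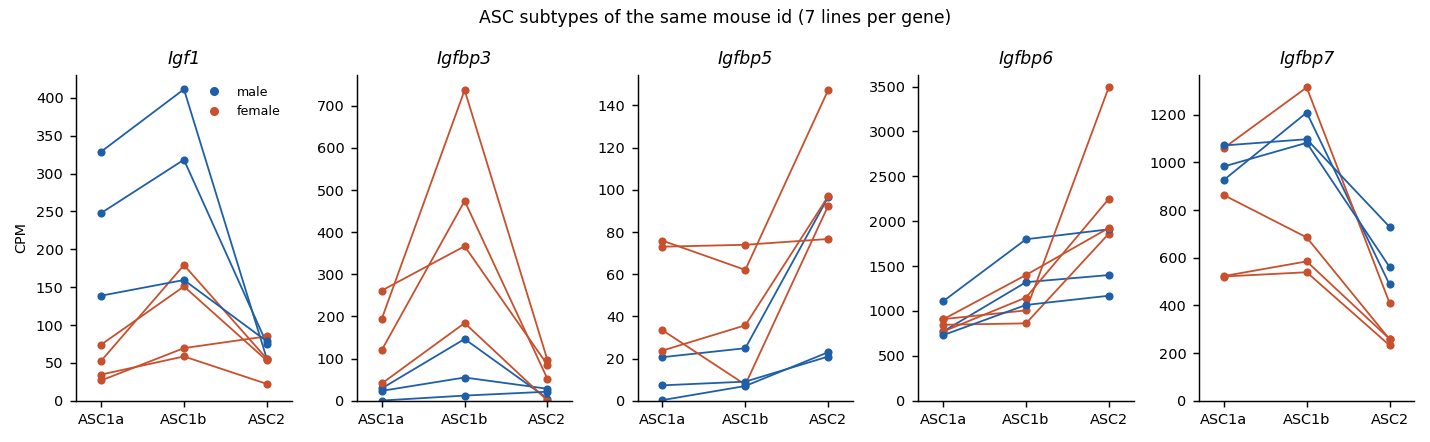
CPM of Igf1, Igfbp3, Igfbp5, Igfbp6 and Igfbp7 on the y axis in ASC1a-like, ASC1b-like and ASC2-like cells on the x axis. Each line joins the values of 1 mouse id (blue male, red female). Igfbp3 peaks at ASC1b-like cells in 6 of the 7 lines and Igfbp7 falls to ASC2-like cells in all 7.

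ASC1b-like cells had the most Igf1 and Igfbp3 on average. Igfbp3 was at 147, 55.2 and 12.3 CPM in ASC1b-like cells of the males 1, 4 and 8 and at 367, 737, 184 and 474 CPM in the females 2, 3, 5 and 6/7. In ASC1a-like cells it was at 29.4, 23.5 and 0.519 CPM in these males and at 262, 195, 41.0 and 120 CPM in these females. The difference was 1.96 ± 0.33 in log2 terms (adjusted p = 0.019), in all 7 mice, and Igfbp3 was the 1 member called of 8, where 0.38% of 10789 genes were called. The call was lost without mouse 1, 3, 5 or 6/7 in turn (adjusted p = 0.051 to 0.0724) and without the pairing by mouse (adjusted p = 1). Igf1 was higher in ASC1b-like than in ASC1a-like cells of all 7 mice by 0.83 ± 0.18 without a call (adjusted p = 0.0619), and Igfbp6 by 0.49 ± 0.10 (adjusted p = 0.0467, under the fold limit). These 3 were the members that differed one way in every mouse, as did 4.91% of all genes.

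From ASC1b-like to ASC2-like cells Igf1 was lower. ASC1b-like cells had 411, 318 and 159 CPM in the males 1, 4 and 8 and 151, 58.5, 69.5 and 179 CPM in the females 2, 3, 5 and 6/7. ASC2-like cells had 55.5, 75.4 and 78.5 CPM and 53.2, 22.3, 85.1 and 55.6 CPM in the same order. All mice but mouse 5 had less in ASC2-like cells. The ASC2-like cells of mouse 5 were rich in mesothelial markers (347.5 CPM summed), whose part in this was not tested. The mean difference of -1.48 ± 0.29 in log2 terms was called (adjusted p = 0.0103). The size fell under the fold limit without mouse 1 (-1.24, adjusted p = 0.0211), and without the pairing the adjusted p was 0.0565. With Igfbp5 this made 2 of 8 members called, where 2.87% of 10625 genes were called. The members with 1 direction in every mouse were again Igfbp5, Igfbp6 and Igfbp7, as were 10.3% of all genes. Igfbp3 was lower in 6 of 7 mice by -2.82 ± 0.85 without a call (adjusted p = 0.0771). The exception was mouse 8, without which it was called (-3.35, adjusted p = 0.0252).

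The ASC of mouse 2 were collected by DPP4 itself, so its cells could also be split by sort. They are the same cells as in its subtype sums above, and Dpp4 was among the ASC2 markers scored. The plates held 379 ASC-like cells of the DPP4-positive and 368 of the DPP4-negative sort, and neither sort used a member. There was 1 plate per sort of 1 animal, so there is no test, and the intervals below (95%, exact Poisson) cover counting error only. Dpp4 was at 149 CPM (148 to 150) in the positive and 1.22 CPM (1.12 to 1.34) in the negative sort, and 67.0 and 1.90% of the cells were ASC2-like. Igfbp6 was at 1861 CPM (1856 to 1865) in the DPP4-positive and 932 CPM (929 to 935) in the DPP4-negative sort. Igfbp5 was at 126 (124 to 127) and 67.8 CPM (67.0 to 68.6).

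The other way round, Igfbp3 was at 84.7 CPM (83.8 to 85.7) in DPP4-positive and 362 CPM (361 to 364) in DPP4-negative cells. Igfbp7 was at 529 (527 to 531) and 1249 CPM (1246 to 1253), and Igf1 at 60.4 (59.6 to 61.2) and 115 CPM (114 to 116). Igf1r (6.59 and 6.82 CPM) and Igf2r (29.8 and 33.3 CPM) were close, Igfbp4 was at 1181 and 889 CPM and Igfbp2 had 0 reads in both. The DPP4-negative plate is labelled CD31-negative and PDGFRB-positive. The gate on PDGFRB of the other plate is less sure, since the label gives PDGFRB-positive while its columns carry a prefix shared with PDGFRB-negative plates, and Pdgfrb itself was at 155 and 186 CPM. Of the subtype sums of mouse 2, ASC2-like cells came mostly from the DPP4-positive plate, so subtype and plate overlap in this mouse.

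**Figure D4:**
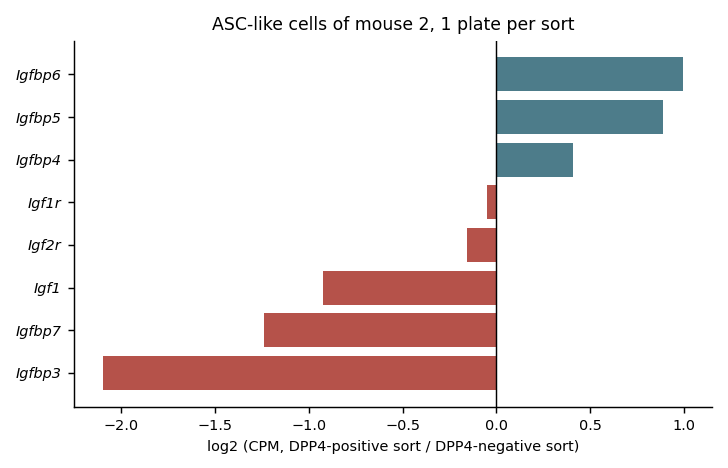
Log2 ratio of CPM in the DPP4-positive over the DPP4-negative sort of mouse 2 on the x axis for 8 genes on the y axis, over ASC-like cells, 1 plate per sort. Bars right of 0 are higher in the DPP4-positive sort. Igfbp6 stands at 1.00 and Igfbp3 at -2.10.

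The sexes were compared within ASC-like cells of 3 males and 4 females. Males had more Igf1 and less Igfbp3, without a call among 8 members tested, where 2.23% of 11821 genes were called. Igf1 was at 236, 216 and 122 CPM in the males 1, 4 and 8 and at 87.7, 36.6, 63.0 and 86.3 CPM in the females 2, 3, 5 and 6/7. Every male was above every female, and the difference was 1.47 ± 0.38 in log2 terms (adjusted p = 0.0799). Igfbp3 was at 50.9, 35.7 and 10.98 CPM in the males and at 228, 318, 73.8 and 188 CPM in the females in the same order. Every female was above every male, with a difference of -2.62 ± 0.61 (adjusted p = 0.0546). These were the 2 of 8 members whose sexes did not overlap, as were those of 16.2% of all genes.

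Both genes moved across the limit under other tests. Igf1 was called by the likelihood ratio test (adjusted p = 0.0106) and DESeq2 (adjusted p = 0.00556). Igfbp3 was called by these as well (adjusted p = 0.00127 and 6.43e-05), and without mouse 1 (-3.19, adjusted p = 0.044). Within the 4 plates sorted for PDGFRB alone (males 1 and 4, females 3 and 5), the differences were 2.22 for Igf1 (adjusted p = 0.189) and -2.10 for Igfbp3 (adjusted p = 0.517). Igfbp5 was lower in males by -1.47 ± 0.58 with overlapping sexes (adjusted p = 0.21), and the male with the highest value, mouse 1 with 48.6 CPM, lay within the females' range of 44.4 to 93.6 CPM. Without mouse 1 it was called (-2.70, adjusted p = 0.0114). The other 5 members tested differed by -0.28 to 0.56, with adjusted p from 0.386 to 0.99.

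Subtypes were scored within each mouse, so 1 subtype name can cover different cells in different mice. In the study's own clusters the male ASC1a cluster held no cell of mouse 1. Its male ASC2 cluster held few cells of mice 4 and 8. By subtype, Igf1 was called higher in males in ASC1a-like cells, the 1 member of 8, where 1.27% of 9260 genes were called. It was at 329, 248 and 139 CPM in the males 1, 4 and 8 and at 74.1, 34.6, 26.8 and 52.6 CPM in the females 2, 3, 5 and 6/7. The lowest male was above the highest female. Igfbp3 was at most 29.4 CPM in males and at least 41.0 CPM in females. Igfbp5 was at most 20.7 CPM in males and at least 23.8 CPM in females. These were the 3 of 8 members whose sexes did not overlap, as were those of 14.4% of all genes. The difference of Igf1 was 2.33 ± 0.43 in log2 terms (adjusted p = 0.0261). It was not called when mouse 1, 4, 3, 5 or 6/7 was left out in turn (adjusted p = 0.0513 to 0.118), nor with totals free of ribosomal RNA (adjusted p = 0.0683) or library totals alone (1.65, adjusted p = 0.125), and was called in the plates sorted for PDGFRB alone (3.24, adjusted p = 0.048).

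In ASC1b-like cells Igf1 differed by 1.33 ± 0.48 (adjusted p = 0.224) and in ASC2-like cells by 0.36 ± 0.40 (adjusted p = 0.676). No member was called in ASC1b-like cells (1.74% of 9102 genes) or in ASC2-like cells (0.526% of 9133 genes). Whether the sex difference itself changed between ASC1a-like and ASC2-like cells was tested as a product of sex and subtype. It was not called for any member, where 0.0745% of 10734 genes were, and Igf1 had -1.81 ± 0.57 (adjusted p = 0.524). The difference of Igfbp3 between males and females was -3.10 ± 1.02 in ASC1a-like (adjusted p = 0.189), -2.60 ± 0.74 in ASC1b-like (adjusted p = 0.123) and -1.68 ± 1.06 in ASC2-like cells (adjusted p = 0.457). Igfbp7 in ASC2-like cells was at 488, 562 and 730 CPM in males and at 410, 259, 258 and 233 CPM in females, a difference of 1.04 ± 0.31 (adjusted p = 0.191). Igf1r there was at 12.6, 16.8 and 18.3 CPM in males and at 7.38, 7.47, 11.35 and 6.99 CPM in females, a difference of 0.94 ± 0.35 (adjusted p = 0.259).

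**Figure D5:**
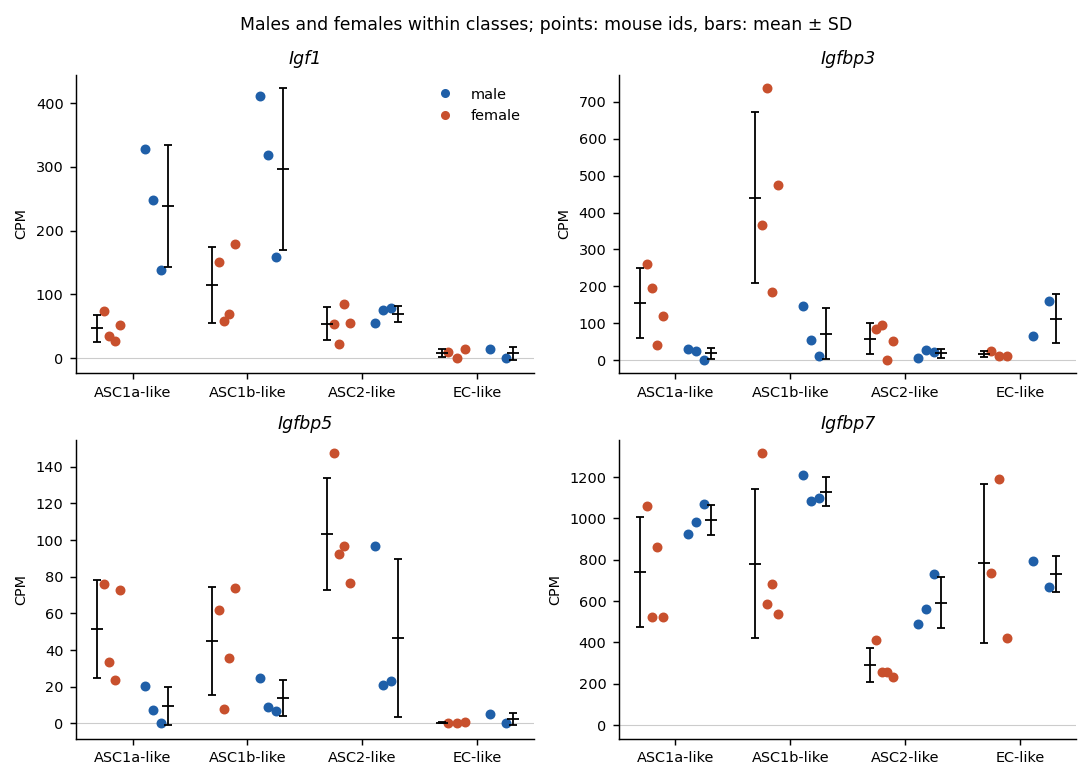
CPM of Igf1, Igfbp3, Igfbp5 and Igfbp7 on the y axis by class on the x axis, with a point per mouse id (blue male, red female) and the mean ± SD of each sex. Igf1 of ASC1a-like cells is higher in the 3 males (139 to 329 CPM) than in the 4 females (26.8 to 74.1 CPM), and Igfbp3 of EC-like cells is higher in the 2 males (66.3 and 159 CPM) than in the 3 females (9.77 to 25.2 CPM).

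In EC-like cells Igfbp3 was ordered the other way. It was at 66.3 and 159 CPM in the males 1 and 8 and at 25.2, 12.3 and 9.77 CPM in the females 2, 5 and 6/7. Both males were above all 3 females, where the sexes did not overlap in 26.7% of all genes, with a difference of 2.88 ± 0.60 that was not called (adjusted p = 0.351), where 0.0493% of 8119 genes were called. The likelihood ratio test (adjusted p = 0.00346) and DESeq2 (adjusted p = 0.000782) called it. EC-like cells of mouse 1 formed a cluster apart from those of the other mice, so the cluster and this male cannot be told apart. The sex difference of EC-like minus that of ASC-like cells, tested in the 5 mice with both classes, was 5.40 ± 1.25 for Igfbp3 (adjusted p = 0.775) and was called for none of 12207 genes (0%), with 770 genes at an unadjusted p below 0.05, 105 called by the likelihood ratio test and 209 by DESeq2. Both fits in EC-like cells had 3 residual degrees of freedom and miss large changes with the quasi-likelihood test, so a missing call there says nothing about a difference. Igfbp3 was called by the latter tests (adjusted p = 0.0053 and 0.000325).

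A list of 36 other genes of the IGF system, of which 32 had a row, covered co-receptors, proteases that free IGFs from binding proteins, adaptors and signalling genes. Their CPM are scaled within each comparison, so the same sum can differ slightly between comparisons. Between EC-like and ASC-like cells 10 of 28 tested were called, beside 22.7% of all genes, 1 higher and 9 lower, with a median of -0.998 against -0.20 for all genes. Pappa, the protease that cleaves IGFBP4 in the presence of IGF, was at 0 to 0.0432 CPM in EC-like and 9.03 to 12.96 CPM in ASC-like cells (-9.98, adjusted p = 0.000723). Htra3 and Htra1, secreted serine proteases that carry a domain like that of the binding proteins, were lower by -7.58 (adjusted p = 0.000102) and -7.14 (adjusted p = 0.000174). Cd93, which encodes a membrane protein and receptor of IGFBP7, was higher by 9.42 (adjusted p = 8.52e-05), at 121 to 171 against 0.0861 to 0.853 CPM.

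Macrophage-like cells differed from ASC-like cells in 10 of 22 tested, beside 25.2% of all genes, again 1 higher and 9 lower, with a median of -1.16 against -0.02 for all genes. The 4 of largest size were the same, Htra3 (-9.33, adjusted p = 0.00213), Pappa (-8.84, adjusted p = 0.00207), Htra1 (-8.77, adjusted p = 0.000351) and Cd93 (8.24, adjusted p = 0.000426). Both comparisons share ASC-like sums. Mural-like cells had more Htra1 than EC-like cells (5.80, adjusted p = 0.0248), the 1 gene called of 20 (0.92% of all genes), and none of 26 was called against ASC-like cells (0%).

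Among subtypes, Pappa was lower in ASC2-like than in ASC1a-like cells (-3.88, adjusted p = 0.00157), at 0.247 to 4.93 against 13.5 to 29.2 CPM. It was also lower in ASC2-like than in ASC1b-like cells (-2.82, adjusted p = 0.00969). Igf2bp2, an RNA-binding protein, was lower in ASC2-like than in ASC1a-like cells (-2.25, adjusted p = 0.0407), and these were 2 of 23 tested (3.26% of all genes). Stc1, which encodes an inhibitor of PAPP-A, was called with Pappa between ASC2-like and ASC1b-like cells, 2 of 26 tested (2.87% of all genes), at 0 to 0.0818 against 0 to 41.8 CPM (adjusted p = 0.0265). In ASC1b-like cells of the males Stc1 was at or near 0 (values below), so this difference rests on the females. None of 25 was called between ASC1b-like and ASC1a-like cells (0.38% of all genes).

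Between the sexes, 2 of 29 were called in ASC-like cells, beside 2.23% of all genes. Pappa2, a protease of IGFBP5 and IGFBP3, was at 3.03 to 23.2 CPM in males and 0.0343 to 0.113 CPM in females (7.36, adjusted p = 0.00157). Insrr, a relative of the insulin receptor, was at 2.42 to 8.10 CPM in males and 0 to 0.132 CPM in females (6.13, adjusted p = 0.0221). In ASC1b-like cells 2 of 25 were called, beside 1.74% of all genes, Pappa2 (8.50, adjusted p = 0.00635) and Stc1, which was at 0 to 0.00859 CPM in males and 0.985 to 42.4 CPM in females (adjusted p = 0.0175). None was called in ASC1a-like (23 tested, 1.27% of all genes), ASC2-like (21 tested, 0.526%) or EC-like cells (18 tested, 0.0493%).

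The share of cells with a read was taken after thinning each cell to 150000 reads, with the unthinned share beside it. Igf1 was read in 66.0% of ASC-like cells (78.8% unthinned, mean of 7 mice), 79.8% of macrophage-like (87.7%) and 13.02% of EC-like cells (21.7%). Igfbp6 was read in 99.5% of ASC-like cells (99.8%) and in 21.2% of EC-like cells (41.7%), at the low levels given above. This EC-like share ran from 2.35 to 44.8% over mice, and on average 1.36% of EC-like cells had at least 5 thinned reads. Igf1r was read in 16.8 to 22.1% of the cells of each class (21.8 to 32.2% unthinned). Igf2r was read in 53.0% of ASC-like (68.7%) and 1.32% of macrophage-like cells (3.29%).

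For each member the 2 protein-coding genes most alike in level were taken by Pearson's r of log2(CPM + 1) over the 30 sums of class and mouse, among 11423 genes. These sums share mice, plates and class differences, so r is a description. Igfbp6 was nearest to Mfap5 (r = 0.99) and Pdpn (r = 0.99), genes of a microfibril protein and of podoplanin. Igfbp4 was nearest to Pdlim2 (r = 0.95) and Dapk1 (r = 0.94), Igfbp7 to Fzd4 (r = 0.92) and Sparcl1 (r = 0.92), and Igf2r to Nedd4 (r = 0.90) and Npdc1 (r = 0.88). Igfbp5 followed Cacna2d1 (r = 0.86) and Postn (r = 0.82), the latter the gene of the matrix protein periostin. Igf1 was nearest to Ifi207 (r = 0.85) and B4galt1 (r = 0.85). Values were lower for Igfbp3, with Dapk2 (r = 0.69) and Id3 (r = 0.68), and for Igf1r, with Bysl (r = 0.63) and Ranbp10 (r = 0.62). Igfbp2, at or near 0 in most sums, was nearest to Lrp2 (r = 0.90) and Ptprq (r = 0.90).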

How the data were processed

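SVF cells of 11 plates were sequenced as 50 bp single reads. The authors made FASTQ files with bcl2fastq, aligned reads with STAR to mm10 with ERCC spike-ins, quantified genes with Salmon and imported them with tximport, and they removed low-quality and contaminated cells. Versions of bcl2fastq, STAR, Salmon and tximport, and the step that gave whole numbers, are not given in the sources used here. The deposited table holds raw counts, as whole numbers for each gene in each cell. The study tested sex with the likelihood ratio test of edgeR.

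The 9 members, the list of 36 other genes of the pathway and the marker lists were chosen with earlier results of these data known. Members that passed the filter on low counts were tested in every comparison. A member not named in a comparison was not called there in the main test. Of the 36, at most 4 called genes of the largest fold change are named per comparison, and for each member the 2 most alike genes.

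ERCC rows (72 rows, 1.98% of reads) were left out. Cells were clustered in Seurat 5.3.0 (scale factor 500000, 3000 variable genes, 14 components, resolution 1.1) without the members and the other pathway genes. Of 18 clusters, 2 with 171 cells stayed unnamed, 1 led by adipocyte genes and 1 with a high mitochondrial share. A deposited annotation was not used here, so shares of classes may differ from the study's. No doublet caller was run, and mixed cells were left out as an alternative. ASC subtypes were given by z-scores of markers within each mouse. This centres the scores in each mouse, so shares of subtypes cannot be compared between mice. A subtype name can also cover different cells in different mice.

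Counts were summed per mouse id and class with at least 10 cells, which makes the mouse and not the cell the replicate. A gene entered a test if at least 2 sums exceeded 600 reads, and edgeR 4.0.16 was used (quasi-likelihood F test, TMM factors, two-sided, Benjamini-Hochberg over all genes). Class and subtype comparisons had mouse id as a block, because both sums came from the same animal. Scripts were tested on simulated data with known changes. Sums held 14765132 to 594421842 reads, and intervals cover counting error only, as PCR copies were not removed. Alternatives were other scalings, filters, tests (likelihood ratio test, DESeq2 1.42.0), cell thinning, class definitions and each mouse left out. Some analyses were added after the data were seen. They include totals without ribosomal RNA, pericyte-like cells alone, plates sorted for PDGFRB alone and the sex by class term.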

Additional observations from a re-analysis of the deposited data

Results flagged for a closer look

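Samples are given here that lay far from the other 3 of a group of 4, by Dixon's 95% limit on the gap over the range. This could be tested in females only, over 36 groups (9 genes in ASC-like cells and their 3 subtypes), and chance gives such a sample in about 1 of 20 groups. Igfbp2 was highest in mouse 5 in ASC-like cells, at 1.33 CPM against 0 to 0.176 CPM, and in ASC2-like cells, at 3.23 CPM against 0 to 0.0299 CPM. In ASC1a-like cells Igfbp2 of mouse 6/7, at 0.0104 CPM, was 1 read where the other females had 0. Igf1r in ASC2-like cells was at 11.35 CPM in mouse 5 against 6.99 to 7.47 CPM in the other females. In these ASC2-like cells of mouse 5 the 6 mesothelial markers summed to 347.5 CPM, against 0.524 to 6.10 CPM in the other females, and the smooth muscle gene Acta2 was at 168 CPM against 0.609 to 3.22 CPM. Their part in the values of Igfbp2 and Igf1r was not tested. Igfbp7 in ASC2-like cells was at 410.4 CPM in mouse 2, whose ASC2-like cells came mostly from a DPP4-positive sort, against 233 to 259 CPM in the other females. The part of that sort in the value was not tested.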

How the results depend on the processing

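Members called in a comparison under at least 1 setting kept their direction there under every alternative run. The direction of members never called in a comparison was not checked. The 4 members called between EC-like and ASC-like cells were called under all alternatives. The counts of called members are given here as main value and alternative. Library totals alone, which shifted the median of all genes by -0.599 between the sexes in ASC-like cells, gave 2 in place of 0 for sex in ASC-like, 1 in place of 0 for sex in ASC1b-like, and 2 in place of 1 for mural-like against EC-like cells. Totals without ribosomal RNA gave 0 in place of 1 for sex in ASC1a-like and 1 in place of 2 for ASC2-like against ASC1b-like cells, and they raised mean levels in ASC-like cells, such as 227 CPM for Igf1. Without the filter on low counts the single calls of sex in ASC1a-like, ASC2-like against ASC1a-like and ASC1b-like against ASC1a-like cells came to 0, and Igfbp2, then tested, was lower in macrophage-like cells (-5.90, adjusted p = 0.0478). The likelihood ratio test gave 2 for sex in ASC-like and in ASC1a-like cells, 1 for sex in ASC1b-like and EC-like cells, 1 for mural-like against ASC-like, 2 for mural-like against EC-like and 1 for sex by class. DESeq2 gave 2, 1, 1, 2, 2 and 1 for sex in ASC-like, ASC1b-like and EC-like cells, mural-like against ASC-like, mural-like against EC-like and sex by class, and 1 for sex by subtype (Igf1, adjusted p = 0.025). Thinning gave 1 for sex in ASC-like, 0 for sex in ASC1a-like, 1 for mural-like against ASC-like, 0 for mural-like against EC-like and 0 for ASC2-like against ASC1a-like cells. Without mixed cells 3 of 5 remained for macrophage-like cells and 0 for ASC2-like against ASC1a-like cells, and scoring subtypes over all ASC-like cells gave 0 for ASC2-like and for ASC1b-like against ASC1a-like cells. Without the block by mouse the counts were 3 for macrophage-like against ASC-like cells and 0 for mural-like against EC-like cells and for each of the 3 subtype pairs. Leaving out each mouse gave 0 to 2 for sex in ASC-like, 0 to 1 for sex in ASC1a-like, ASC1b-like, ASC2-like and EC-like cells, 0 to 1 for ASC2-like and for ASC1b-like against ASC1a-like, and 1 to 3 for ASC2-like against ASC1b-like cells. Sex in EC-like cells without mouse 1 left 1 male, assumed to vary like the other samples, and 685 genes called. The cause of these changes was not tested.

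Counts of all genes called moved as well. For sex in ASC-like, ASC1a-like, ASC1b-like, ASC2-like and EC-like cells they were 264, 118, 158, 48 and 4, against 552, 348, 385, 230 and 54 with the likelihood ratio test, 594, 399, 416, 265 and 110 with DESeq2 and 167, 71, 124, 17 and 0 without the filter. For mural-like against EC-like cells 67 became 305 with the likelihood ratio test, 514 with DESeq2 and 290 with library totals alone, and for ASC1b-like against ASC1a-like cells 41 became 89, 120 and, without the block, 0. The 350 and 305 genes called for ASC2-like against ASC1a-like and ASC1b-like cells became 198 and 122 without the block and 182 and 155 with thinned cells, which left fewer genes tested. Thinning also gave 166 for sex in ASC-like and 87 in ASC1b-like cells, 842 in place of 2027 for macrophage-like and 213 in place of 0 for mural-like against ASC-like cells. The 8 genes of sex by subtype became 70 with the likelihood ratio test, 101 with DESeq2, 3 without the filter and 12 without cells near a boundary, which gave 73 for sex in ASC1b-like cells. On the plates sorted for PDGFRB alone, 32, 30, 16 and 4 genes were called for sex in ASC-like cells and the 3 subtypes. Fits for mural-like cells without mixed cells or with classes from the markers of each cell, and those of mural-like and macrophage-like cells without a mouse, could not be fitted with 1 mouse left.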

Other observations

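The smaller classes and the unnamed clusters were summed over all mice and have no replicate. The 22 lymphatic EC-like cells had 538 CPM of Igfbp4, 365 CPM of Igfbp5, 103 CPM of Igfbp7 and 87.6 CPM of Igfbp3, with 0.863 CPM of Igf1 and 3.11 CPM of Igfbp6. Blood EC-like cells had at most 56.5 CPM of Igfbp4 and 4.92 CPM of Igfbp5 in any mouse. The 19 epithelial-like cells, all of mouse 1, had 409 CPM of Igfbp4, 439 CPM of Igfbp7 and 4.56 CPM of Igfbp2.

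The 121 cells of the cluster led by adipocyte genes had 435 CPM of Igfbp7, 99.2 CPM of Igfbp4, 57.4 CPM of Igf1, 31.4 CPM of Igfbp3 and 2.80 CPM of Igfbp6. Among the class markers this cluster scored highest for EC, with 537 CPM of Pecam1 and 444 CPM of Kdr. Its levels can therefore not be assigned to adipocytes. The 50 cells of the cluster with a high mitochondrial share had 2370 CPM of Igfbp6, 506 CPM of Igfbp7 and 144 CPM of Igfbp5. They scored highest for ASC markers, with 18275 CPM of Dcn and 302.5 CPM of Pdgfra.

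The sums of mouse 6/7 came from plates with different sorts. ASC-like cells of the CD31-negative, PDGFRB-positive plate had 210 CPM of Igfbp3 and 65.9 CPM of Igfbp5, and those of the second plate 95.9 and 112 CPM, with 87.4 and 88.5 CPM of Igf1.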
